A study of Mus musculus with 18 samples.

Results

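The AP-1 set described here has 10 genes: Fos, Fosb, Fosl1 and Fosl2 of the FOS family, Jun, Junb and Jund of the JUN family, and the related factors Atf3, Batf and Maff. They were chosen by name, and all 10 are among the 55401 genes counted in every library. The libraries are RNA-seq of primary mouse cholangiocytes, which form the epithelium of the bile ducts, taken from wild-type animals (WT) or from a mouse model of polycystic liver disease (PLD), in which ducts widen into cysts. The design has 6 groups of 3 libraries. The 4 untreated groups are WT and PLD mice at 1 or 2 months counted from induction with tamoxifen, and the 2 treated groups are PLD mice given CPTH6, known as an inhibitor of histone acetyltransferases, or ML324, known as an inhibitor of KDM4 histone demethylases. The titles of the treated libraries give 3 months, and the labels give neither dose nor schedule. The labels also name neither the gene inactivated in PLD mice, nor the driver of the tamoxifen-inducible recombination, nor the age of the mice, and do not say whether WT mice received tamoxifen. Livers were perfused and digested with collagenase and hyaluronidase, and cells were captured on beads with an antibody to EpCAM, an epithelial surface protein. Nothing in the labels says that the libraries of a group come from separate animals, so the p-values measure only the spread between these libraries, which may be technical.

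AP-1 is a family of dimeric transcription factors with a basic leucine zipper, the domain that both pairs the subunits and grips DNA. FOS proteins cannot pair with each other and need a JUN partner, whereas JUN proteins also pair among themselves, and the dimers bind the sequence TGACTCA, known as the TRE, or the cyclic AMP response element TGACGTCA, known as the CRE. Fos, Fosb, Jun, Junb and Atf3 are immediate early genes, transcribed within minutes of growth factor, stress or wounding signals through MAP kinases. Fosl1 encodes FRA1, a FOS protein without the transactivation domain of Fos that is known from epithelial repair and invasive carcinoma, and its transcription is itself driven by AP-1. Enzymatic dissociation of tissue is known to induce the immediate early members.

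The libraries held 16345740 to 29277311 counts, and mitochondrial genes took 1.31% to 2.36% of them. Summed over 14 cholangiocyte markers such as Krt8, Cldn4 and Spp1, the level in CPM (counts relative to library size, with sizes scaled by the TMM method over all 18 libraries) was 3700 to 13600 CPM in WT libraries, 12800 to 22400 CPM in untreated PLD libraries and 25800 to 36900 CPM in treated ones, so the labelled cell type's markers were present throughout but not at one level. Replicate 3 of WT at 1 month stood apart from its group, with 13600 CPM of cholangiocyte markers against 6370 and 5910 CPM, and 3320 CPM of 12 stellate cell and fibroblast markers against 19200 and 18600 CPM. Replicate 1 of WT at 2 months had a count in 40039 genes, against 22780 to 30332 in the other 17 libraries. In bulk libraries of this kind, fewer cells of a type and less RNA per cell cannot be told apart.

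By raw count, the immediate early members were among the top genes of these libraries. Fosb, whose protein is a close relative of Fos, ranked between 1 and 9 of all genes by count in each library and was the top gene in 2 of the 18. Fos ranked 4 to 20, Jun 3 to 17, Junb 11 to 53 and Atf3, an ATF-family stress factor that pairs with JUN proteins, 11 to 72, so that these 5 genes lay in the top 100 of all 18 libraries. Jund, the JUN family member known for steady expression in resting cells, ranked 53 to 305, Fosl2, which encodes FRA2, 83 to 644, and Maff, a small MAF protein that lacks a transactivation domain, 164 to 1090. Fosl1 ranked 1688 to 10966 and Batf, a small AP-1 protein best known from T and B lymphocytes, 11237 to 14844. Together the 10 genes took 1.41% to 2.79% of all counts, the highest share in replicate 1 of WT at 1 month and the lowest in replicate 3 of PLD at 2 months.

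The ranks above are by raw count and are not scaled for exon length or shared bases. They favour long genes such as Fosb, with 6243 exonic bases against 2352 for Fos. Elsewhere, levels of different genes are compared as CPM per kilobase of exon, over the bases that overlap no other gene. On that scale the group means ran from 1170 to 1860 for Fos, 1050 to 1610 for Jun, 940 to 1670 for Junb, 614 to 1340 for Jund, 848 to 1560 for Atf3 and 700 to 1170 for Fosb. Maff lay at 97.1 to 272, Fosl2 at 41.3 to 86.4, Fosl1 at 12.3 to 143 and Batf at 0.679 to 3.06. The values of Fosl1 and Jund depend on the length used: Fosl1 shares 1163 of its 2033 exonic bases with the antisense gene Ccdc85b, and Jund shares 877 of 1668 with the antisense gene Gm11175, so their counts rest on 870 and 791 free bases. Reads in the shared bases go to no gene, and the counting command names no strand option, so reads of Fosl1 and of Ccdc85b cannot be told apart by strand.

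**Figure D1:**
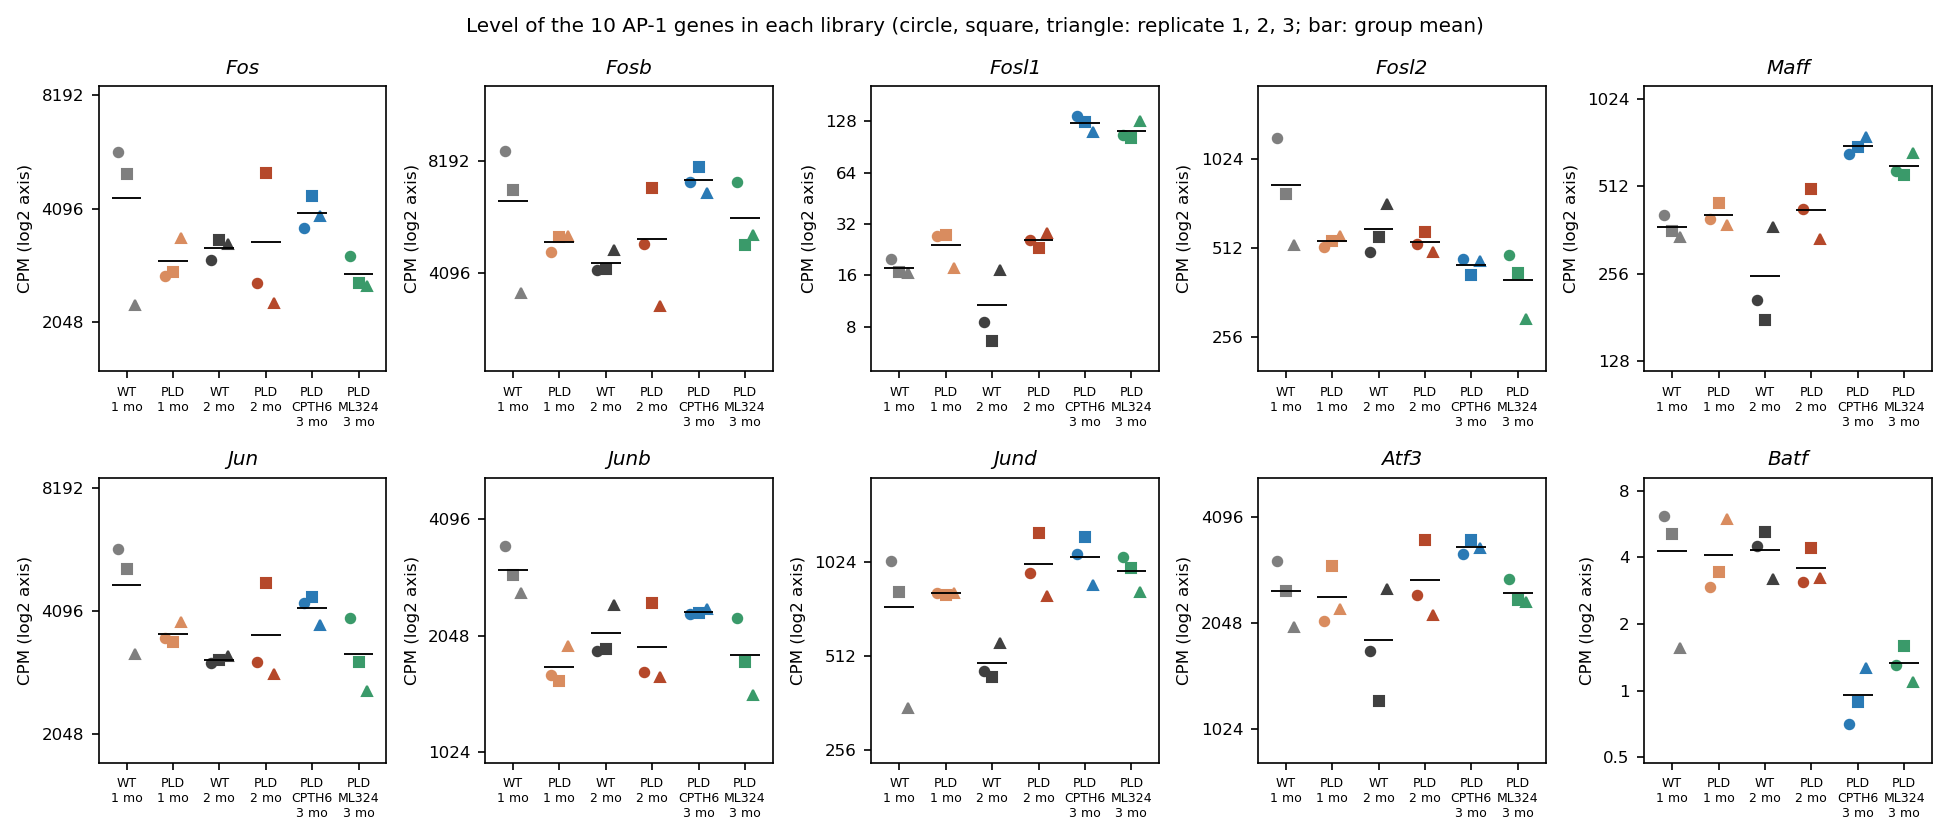
Level of each of the 10 genes in all 18 libraries, in CPM on a log2 axis, with circles, squares and triangles for replicates 1, 2 and 3 and a bar for the group mean; WT and PLD are the genotypes and mo the months in the labels. Fosl1 sits at 102 to 137 CPM in the 6 treated libraries and at 6.59 to 28.2 CPM in the 12 untreated ones. Fos, Fosb and Jun spread widely within WT at 1 month (Fos 2280 to 5780 CPM) and PLD at 2 months (Fos 2310 to 5110 CPM), and less within the other groups.

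Fos, Fosb, Jun and Junb had similar patterns over the libraries, though they were not set apart from every other member. The root mean square difference between 2 genes' log2 CPM, each centred on its own mean over the 18 libraries, was 0.18 for Fos and Jun, 0.21 for Jun and Junb, and 0.22 for Fosb and Jun. It was 0.33 for Fosb and Junb, more than the 0.27 for Fosb and Atf3 or the 0.31 for Junb and Fosl2, and 1.45 for Fos and Fosl1. Because these genes have similar patterns, the stretches just before their RefSeq start sites are shown (GRCm38.p6, which is mm10), together with that of Maff, the only member with a whole CRE. The stretches are chr12:85473750-85473889 on the plus strand for Fos, chr7:19310052-19310185 on the minus strand for Fosb, chr4:95052223-95052362 on the minus strand for Jun, chr8:84978749-84978888 on the minus strand for Junb and chr15:79347380-79347519 on the plus strand for the second of 3 Maff starts. Capitals mark TGACG, the letters that begin a CRE, the box TATAAA, the Jun form of the TRE, TGACATCA, and the CRE itself.
Fos: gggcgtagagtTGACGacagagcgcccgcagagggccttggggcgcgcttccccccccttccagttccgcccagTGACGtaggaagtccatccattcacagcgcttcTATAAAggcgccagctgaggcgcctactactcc
Fosb: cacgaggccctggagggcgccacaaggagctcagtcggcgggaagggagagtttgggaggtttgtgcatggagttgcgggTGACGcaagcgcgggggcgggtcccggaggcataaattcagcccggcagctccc
Jun: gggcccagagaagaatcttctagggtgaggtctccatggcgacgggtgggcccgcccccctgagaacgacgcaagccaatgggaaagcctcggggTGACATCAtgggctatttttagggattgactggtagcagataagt
Junb: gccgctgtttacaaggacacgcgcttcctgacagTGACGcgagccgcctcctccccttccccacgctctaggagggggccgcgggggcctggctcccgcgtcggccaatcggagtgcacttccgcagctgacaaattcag
Maff: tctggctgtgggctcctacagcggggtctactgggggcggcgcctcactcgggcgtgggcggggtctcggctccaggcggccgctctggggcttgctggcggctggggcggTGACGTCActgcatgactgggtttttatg

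Counted from the start site, with the base before it at -1, TGACG began at -129 and -66 of Fos, with TATAAA at -33, at -60 of Fosb and at -106 of Junb. In Jun the letters TGACATCA began at -45, and in Maff the CRE began at -29. Outside the stretches shown, TGACG also began at -98 of Batf. On the opposite strand it had its leftmost base at -7 of Atf3 and at -122 of the third Maff start. TGACATCA also began at -45 of the third Maff start, and TATAAA at 1 of Junb, counting the start site as 1. These letters are thus not particular to the members with similar patterns. Windows of 300 bases, 250 before the start to 50 after it, were searched on both strands, and 9 of the 10 members had at least 1 window; Fosl1 has no entry. Over all 32851 such windows the CRE was found in 1.79%, TRE TGACTCA in 5.2%, the CArG box bound by serum response factor in 1.63%, TATAAA in 13.6%, TGACG in 20.8% and TGACATCA in 3.62%. TGACG also counts every CRE, and both it and TGACATCA were added to the search after the windows had been seen. No member's window held TGACTCA or a CArG box, which says only that those letters are not in these windows. The RefSeq start lay 30 bases from the nearest exon start of the counted gene for Junb and 51 for Batf. For Fosl2 that distance was 299 bases and for Jund 1210, so these windows do not all adjoin the counted genes' starts. A match is a run of letters and not evidence of binding.

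At 1 month, PLD and WT libraries were compared to ask which genes differ early after induction. None of the 10 members passed the test (edgeR quasi-likelihood test, Benjamini-Hochberg adjusted p under 0.05), against 5.03% of the 17749 genes tested, 892 in all. At an unadjusted p under 0.05 there were 2, Junb and Fosl2, and DESeq2 called 1. The median log2 fold change of the members was -0.20, beside -0.05 over all genes.

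Junb, a JUN protein often induced together with Fos, was the nearest to the threshold. This gene of 1 exon at chr8:84976910-84978718 on the minus strand had 3500, 2940 and 2640 CPM in the WT libraries and 1620, 1560 and 1920 CPM in the PLD libraries. Every PLD library was below every WT library; for 26.4% of all genes tested the groups were apart in this way, in either direction. The log2 fold change was -0.82 ± 0.22 (SE, n = 3 per group; 95% interval -1.30 to -0.34), with an edgeR adjusted p of 0.0556.

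Fosl2 had 1210, 778 and 524 CPM in WT and 514, 541 and 563 CPM in PLD. The groups overlapped through replicate 3 of WT, and the log2 fold change was -0.62 ± 0.25 (SE; edgeR adjusted p = 0.16). Fos itself had 5780, 5070 and 2280 CPM in WT and 2720, 2790 and 3420 CPM in PLD. Again replicates 1 and 2 of WT were high and replicate 3 was the lowest of all 6 libraries, and the log2 fold change was -0.54 ± 0.37 (SE; edgeR adjusted p = 0.397). Jun, which forms the classical dimer with Fos, had 5810, 5210 and 3220 CPM in WT and 3520, 3450 and 3860 CPM in PLD, the same layout.

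That replicate 3 is the library with more cholangiocyte and less fibroblast marker signal than its group, and it also had 21800 CPM summed over 29 other dissociation and immediate early genes, against 33600 and 28800 CPM. With it left out, 2 members passed: Junb with a log2 fold change of -0.90 (edgeR adjusted p = 0.0198) and Fosl2 with -0.86 (edgeR adjusted p = 0.0132), while 3485 genes passed in all. The part of cell makeup in these values was not tested. Junb also passed without replicate 2 of PLD at 2 months (-0.82, edgeR adjusted p = 0.0352), a library of neither group compared. Such a library enters through the shared spread, the gene filter, the scaling and the adjustment of p.

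Among the 29 dissociation and immediate early genes, which hold no member, 4 passed the test at 1 month and all 4 were lower in PLD. Egr3, Egr1 and Egr2, immediate early zinc finger factors, had log2 fold changes of -1.51 ± 0.23, -1.35 ± 0.28 and -1.05 ± 0.22 (SE; edgeR adjusted p = 0.00746, 0.0252 and 0.0254). For Egr1 the mean level was 3970 ± 874 CPM (SD, n = 3) in WT and 1550 ± 256 CPM in PLD. The list's median log2 fold change was -0.31. Beside this, 4 of 14 cholangiocyte markers passed as higher in PLD at 1 month, and 1 of 12 macrophage and Kupffer cell markers and 1 of 9 tested neutrophil and monocyte markers as lower. The summed macrophage and Kupffer cell markers were 798 to 1520 CPM in WT and 449 to 614 CPM in PLD. The part of cell makeup in the Egr values was not tested. Of 25 MAP kinases and SRF or TCF factors that act upstream of AP-1, and of 25 genes known as AP-1 targets, none passed. Of 19 MAP kinase phosphatases and feedback inhibitors 1 passed, Dusp4, with a log2 fold change of 1.74 ± 0.26 (SE; edgeR adjusted p = 0.0078).

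**Figure D2:**
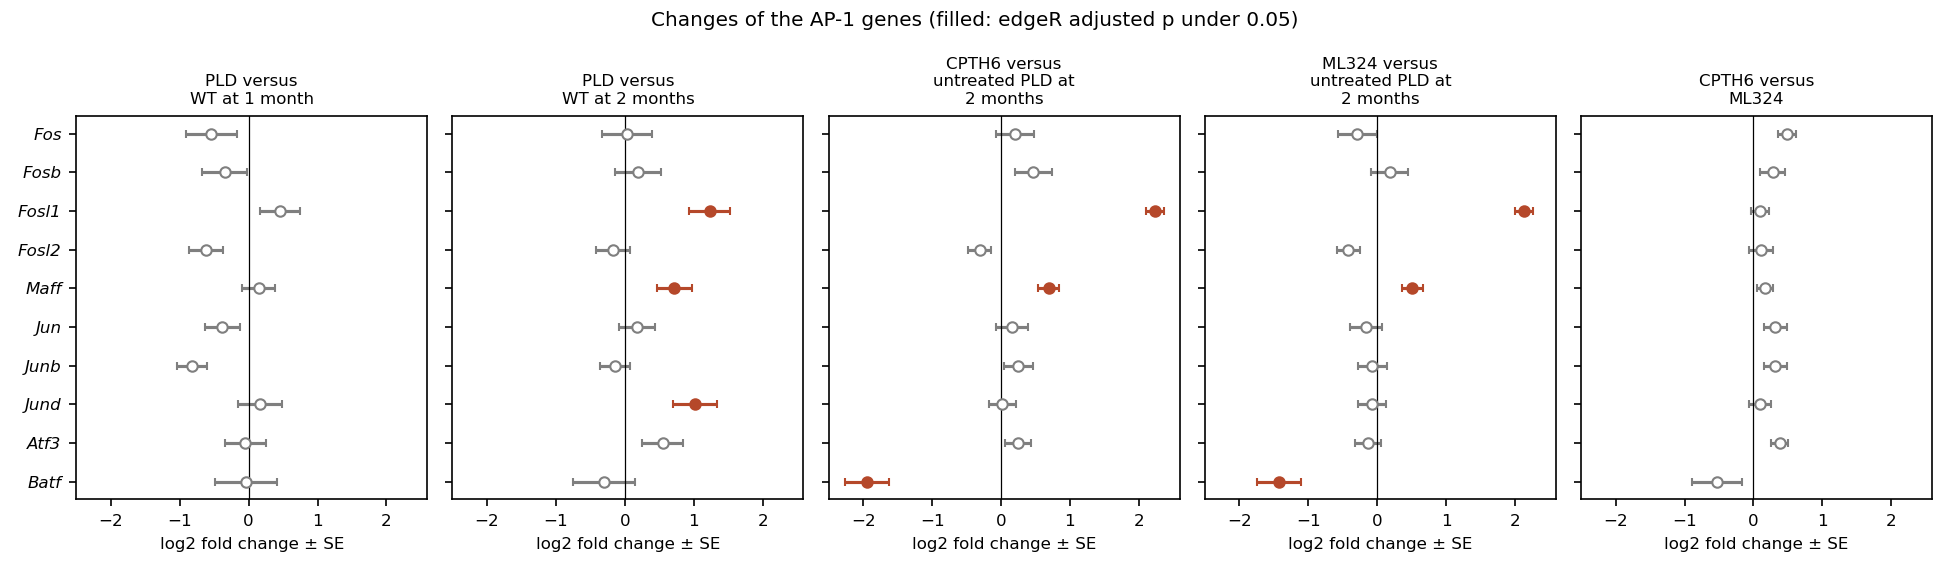
Log2 fold change of each gene (point) with its standard error (bar) in 5 comparisons, filled where the edgeR adjusted p is under 0.05. Fosl1 and Maff are filled and above 0 in PLD versus WT at 2 months and in both treated comparisons, Jund in the first of these alone, and Batf is filled and below 0 in both treated comparisons.

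At 2 months the same comparison asks how the later stage differs from WT. Fosl1, Jund and Maff passed the test and all were higher in PLD, by 2.35-fold, 2.03-fold and 1.65-fold. That is 3 of 10 members, beside 40% of the 17749 genes tested, so the share is not above that of all genes. The other 7 members did not pass, and the median log2 fold change of the 10 was 0.18, beside -0.03 over all genes.

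Fosl1, on the plus strand at chr19:5447547-5455946 (mm10), with 4 exons once overlapping ones are merged, had 8.56, 6.59 and 17.1 CPM in the WT libraries and 25.6, 23 and 28.2 CPM in the PLD libraries. All PLD libraries lay above all WT libraries; 54.9% of all genes tested were apart in either direction. Replicate 3 of WT was nearest to PLD. The log2 fold change was 1.23 ± 0.30 (SE; 95% interval 0.58 to 1.89; edgeR adjusted p = 0.00799), and it passed under all 17 alternatives, from 1.00 without replicate 2 of WT to 1.72 without replicate 3 of WT. The antisense neighbour Ccdc85b, a coiled-coil protein gene, had 59.3 ± 10.5 CPM (SD, n = 3) in WT and 47.9 ± 2.09 CPM in PLD, a log2 fold change of -0.33 ± 0.20 (SE; edgeR adjusted p = 0.201).

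Jund, a gene of 1 exon at chr8:70698949-70700616 on the plus strand, had 456, 438 and 564 CPM in WT and 945, 1270 and 796 CPM in PLD. The groups did not overlap, as for 54.9% of all genes tested in either direction. The log2 fold change was 1.02 ± 0.32 (SE; 95% interval 0.31 to 1.73; edgeR adjusted p = 0.0273). The call was lost without replicate 2 of PLD (0.84, edgeR adjusted p = 0.0834), without replicate 1 of WT (0.99, 0.0758) and without replicate 2 of WT (0.97, 0.0776). The counts of Gm11175 were 0 in every library. Reads in the bases it shares with Jund go to no gene, so this does not show its level.

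Maff, at chr15:79346621-79359076 on the plus strand, had 207, 177 and 371 CPM in WT and 429, 500 and 338 CPM in PLD. Replicate 3 of WT lay inside the PLD range, and the log2 fold change was 0.72 ± 0.25 (SE; 95% interval 0.18 to 1.27; edgeR adjusted p = 0.0372). It passed under 8 of 17 alternatives, with edgeR adjusted p up to 0.121, and was 1.10 without replicate 3 of WT.

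The immediate early members did not separate the genotypes at this time. Fos had 2990, 3380 and 3310 CPM in WT and 2610, 5110 and 2310 CPM in PLD. Replicate 2 of PLD was the highest and replicate 3 of PLD the lowest of the 6 libraries, and the log2 fold change was 0.03 ± 0.36 (SE; 95% interval -0.78 to 0.83). Fosb, at 4180, 4210 and 4720 CPM in WT and 4910, 6960 and 3350 CPM in PLD, and Jun, at 3050, 3110 and 3180 CPM in WT and 3080, 4800 and 2880 CPM in PLD, showed the same spread. Atf3 had 1700, 1230 and 2550 CPM in WT and 2450, 3530 and 2150 CPM in PLD, with a log2 fold change of 0.55 ± 0.30 (SE; edgeR adjusted p = 0.165) that passed only without replicate 3 of WT (0.85, edgeR adjusted p = 0.0495).

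Other cell type markers moved with these 3 members at 2 months. Of the 14 cholangiocyte markers 12 passed and were higher in PLD, with sums of 3700 to 7550 CPM in WT and 21500 to 22400 CPM in PLD. All 12 endothelial markers passed and were lower, with sums of 7800 to 14200 CPM in WT and 625 to 1510 CPM in PLD. Replicate 3 of WT, the library with the most Fosl1, Jund and Maff of its group, also had the most cholangiocyte marker signal of its group, 7550 CPM against 5140 and 3700 CPM. The part of cell makeup in the 3 members' differences was not tested.

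Between 1 and 2 months none of the 10 members passed in PLD, beside 9.61% of all genes tested, and none passed in WT, beside 0.0507%. The counts at an unadjusted p under 0.05 were 0 in PLD and 2 in WT, namely Fosl1 and Junb, and DESeq2 called 0 in either. In WT, 9 of the 10 log2 fold changes were below 0, with a median of -0.50 beside -0.04 for all genes. Jun and Junb were lower in every WT library of 2 months than in every one of 1 month, where 16.6% of genes did not overlap, with log2 fold changes of -0.56 ± 0.26 and -0.50 ± 0.22 (SE; edgeR adjusted p = 0.34 and 0.311). In PLD the median was 0.07.

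The genotype difference at 2 months was also set against that at 1 month in a test of the interaction. No member passed, beside 5.68% of all genes, also at an unadjusted p under 0.05 and with DESeq2. For Jund the difference of differences was 0.86 ± 0.45 on the log2 scale (SE; edgeR adjusted p = 0.277), and for Fosl1 it was 0.77 ± 0.42 (SE; edgeR adjusted p = 0.288). Jund passed without replicate 3 of WT at 1 month (1.19, edgeR adjusted p = 0.0265). So Fosl1, Jund and Maff passed at 2 months and not at 1 month, and the change between the times was not itself detected with all libraries.

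PLD mice given CPTH6 or ML324 were next set beside untreated PLD mice of 2 months. No untreated PLD group of 3 months is among the groups, so compound, month and library set cannot be told apart here, and both comparisons share the same 3 untreated libraries. In each, 3 of 10 members passed, Fosl1 and Maff higher and Batf lower, beside 23.1% of the 16502 genes tested for CPTH6 and 19.4% for ML324. The median log2 fold change of the members was 0.22 with CPTH6 and -0.11 with ML324, beside -0.04 and -0.01 over all genes.

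Fosl1 had 137, 127 and 111 CPM with CPTH6 and 106, 102 and 128 CPM with ML324, against 25.6, 23 and 28.2 CPM in untreated PLD. Every treated library lay far above all 12 untreated libraries of either genotype, whose highest value was 28.2 CPM. Against untreated PLD of 2 months, 42.5% of genes tested for CPTH6 and 37.8% for ML324 were apart in either direction. Fosl1 was 4.70-fold higher with CPTH6, a log2 fold change of 2.23 ± 0.13 (SE; 95% interval 1.94 to 2.52; edgeR adjusted p = 0.000109), and 4.38-fold higher with ML324, 2.13 ± 0.13 (SE; 95% interval 1.84 to 2.42; edgeR adjusted p = 0.00011). Both passed under all 14 alternatives, within 2.15 to 2.31 and 2.02 to 2.20. Ccdc85b was higher too, at 130 ± 22.9 and 92.4 ± 9.72 CPM (SD, n = 3) against 47.9 ± 2.09, with log2 fold changes of 1.39 ± 0.13 and 0.95 ± 0.13 (SE; edgeR adjusted p = 0.000379 and 0.00192). The part of unstranded reads from one gene in the other's count was not tested.

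By group mean Fosl1 ran from WT at 2 months (10.7 ± 5.56 CPM, SD, n = 3) through WT at 1 month (17.7 ± 1.91), PLD at 1 month (24.2 ± 5.62), PLD at 2 months (25.6 ± 2.61) and ML324 (112 ± 14.2) to CPTH6 (125 ± 13). Neighbours in that order overlapped, except that ML324 was apart from PLD at 2 months.

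**Figure D3:**
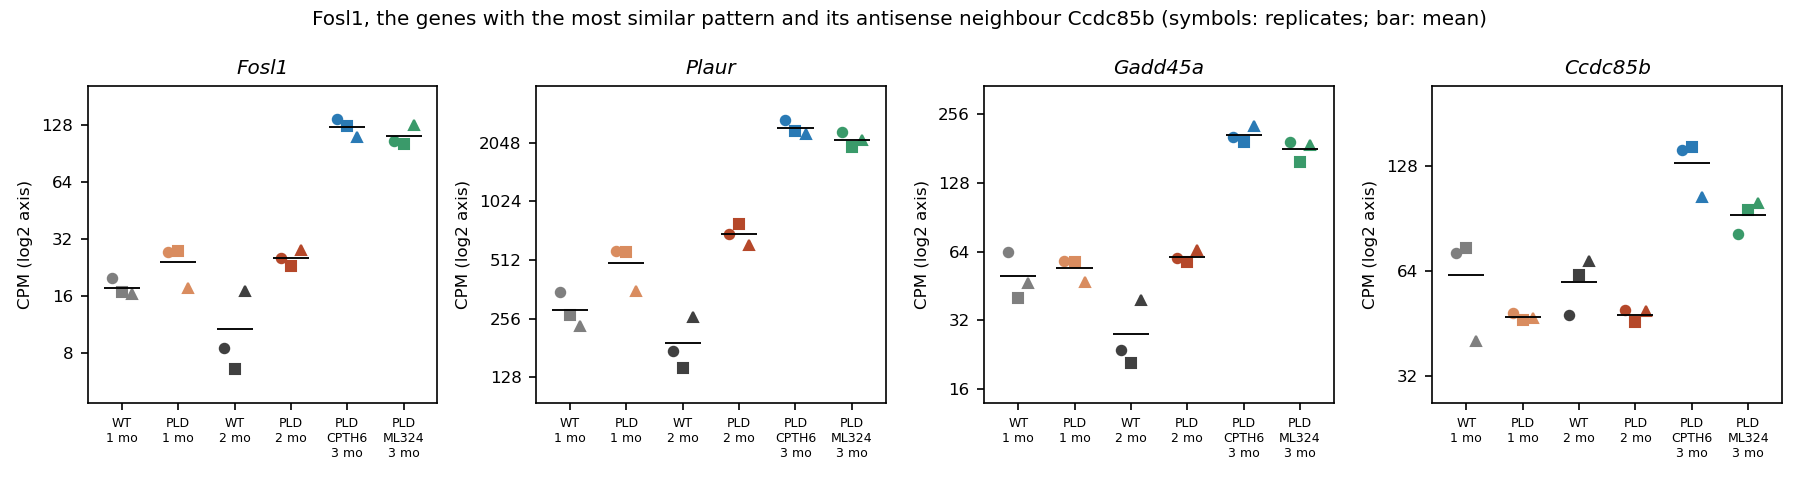
Fosl1, the 2 genes whose pattern over the 18 libraries was most like it (Plaur and Gadd45a) and its antisense neighbour Ccdc85b, in CPM on a log2 axis, with 1 symbol per replicate and a bar for the group mean. All 4 genes are highest in the 6 treated libraries, and Fosl1, Plaur and Gadd45a are lowest in WT at 2 months while Ccdc85b, at 59.3 ± 10.5 CPM there, is not.

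Maff had 663, 697 and 756 CPM with CPTH6 and 580, 560 and 668 CPM with ML324, against 429, 500 and 338 CPM in untreated PLD. No treated library overlapped the untreated PLD ones. In either direction, 42.5% of genes tested for CPTH6 and 37.8% for ML324 were apart in this way. The log2 fold changes were 0.69 ± 0.15 for CPTH6 (SE; edgeR adjusted p = 0.0119) and 0.51 ± 0.15 for ML324 (SE; edgeR adjusted p = 0.0439). The first passed under all 14 alternatives and the second under 5 of 14, with edgeR adjusted p up to 0.133.

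Batf, at chr12:85686669-85709087 on the plus strand, had 0.708, 0.888 and 1.27 CPM with CPTH6 and 1.31, 1.59 and 1.09 CPM with ML324, against 3.09, 4.41 and 3.21 CPM in untreated PLD. These are counts of 17 to 31 per treated library and 53 to 85 per untreated PLD library. The groups did not overlap, as for 42.5% of genes tested for CPTH6 and 37.8% for ML324 in either direction. Batf was 3.86-fold lower with CPTH6, a log2 fold change of -1.95 ± 0.32 (SE; edgeR adjusted p = 0.0029), and 2.68-fold lower with ML324, -1.42 ± 0.32 (SE; edgeR adjusted p = 0.0143). Without replicate 3 of ML324 the second was -1.30 with an edgeR adjusted p of 0.0549. The 4 untreated groups overlapped one another, with means from 3.57 ± 0.732 CPM (SD, n = 3) in PLD at 2 months to 4.30 ± 1.03 CPM in WT at 2 months.

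Markers of other cells were lower beside Batf. The sum of 12 stellate cell and fibroblast markers was 3510 to 7800 CPM in untreated PLD, 419 to 517 CPM with CPTH6 and 317 to 1110 CPM with ML324, and 12 and 11 of them passed as lower. For 12 macrophage and Kupffer cell markers the sums were 773 to 1470, 603 to 708 and 524 to 617 CPM, and 6 of the 11 tested were lower with either compound. The sum of 14 lymphocyte markers was 8.88 to 34.8 CPM in untreated PLD, 5.37 to 8.88 CPM with CPTH6 and 5.46 to 6.89 CPM with ML324, and 1 of the 4 that could be tested was lower. Mean Cd4 was 17.3 CPM in untreated PLD, 1.15 CPM with CPTH6 and 0.903 CPM with ML324. In the same order Trac had 0.676, 0.683 and 0.476 CPM, and Cd79b 1.79, 1.16 and 0.921 CPM. Of the natural killer receptor genes, Klrb1c had no count in the 3 CPTH6 libraries and in 1 of the 3 ML324 libraries. Ncr1 had none in the 3 ML324 libraries, in 1 of the 3 CPTH6 libraries and in 2 of the 3 untreated PLD libraries. Markers of neutrophils and monocytes went the other way, with sums of 19.9 to 51.7 CPM in untreated PLD, 104 to 869 CPM with CPTH6 and 139 to 752 CPM with ML324. Of those 10 markers, 5 passed as higher with CPTH6 and 4 with ML324. The part of these cells in the values of Batf, Fosl1 and Maff was not tested.

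**Figure D4:**
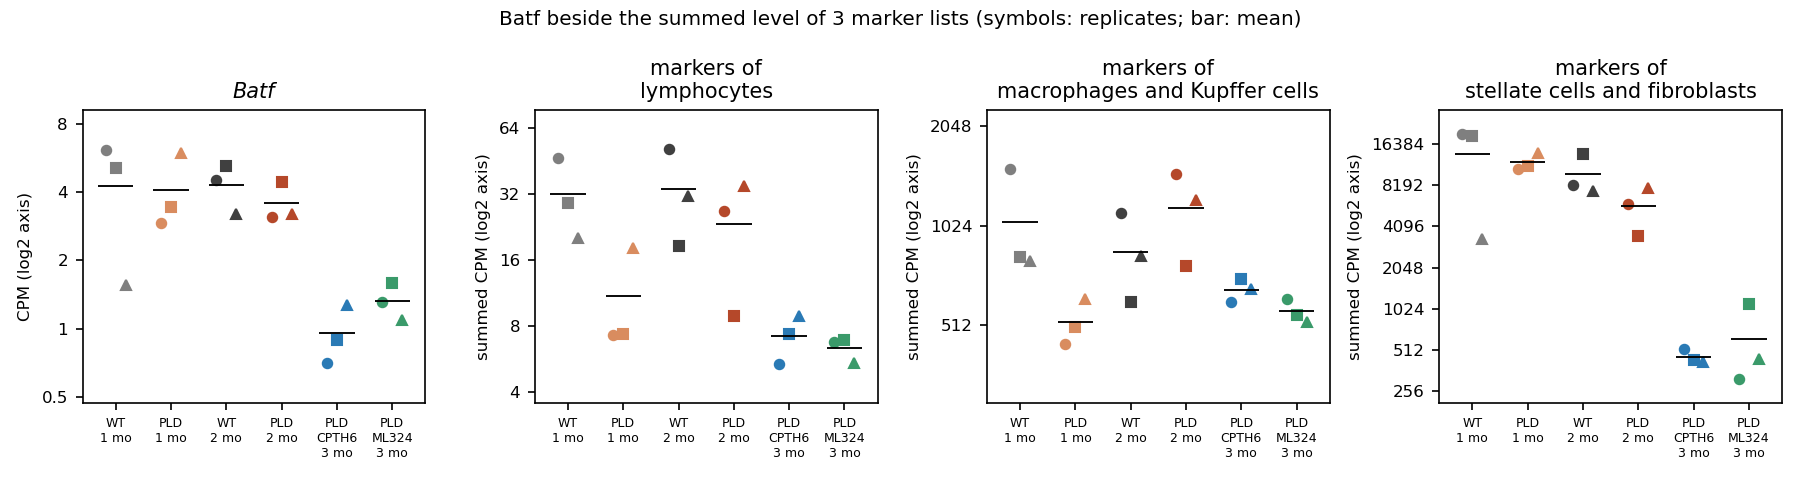
Batf (CPM) and the summed CPM of the lymphocyte, macrophage and stellate cell marker lists in each library, on log2 axes, with 1 symbol per replicate and a bar for the group mean. Batf at 0.708 to 1.59 CPM and the stellate cell markers at 317 to 1110 CPM both sit lower in the treated libraries than in untreated PLD. Within untreated PLD at 2 months the order differs, as replicate 2 has the most Batf (4.41 CPM) and the least of the stellate cell (3510 CPM) and lymphocyte markers (8.88 CPM).

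The remaining members did not pass in either treated comparison, although without a filter on low counts Fosb passed for CPTH6 (0.51, edgeR adjusted p = 0.0193) and Fosl2 for ML324 (-0.41, edgeR adjusted p = 0.0425). Fosl2 had 469, 415 and 461 CPM with CPTH6 and 485, 421 and 293 CPM with ML324, against 530, 578 and 497 CPM in untreated PLD. All treated libraries were below all untreated PLD libraries, where 42.5% and 37.8% of genes did not overlap, with log2 fold changes of -0.31 ± 0.17 and -0.42 ± 0.17 (SE; edgeR adjusted p = 0.235 and 0.12). Fos had 3640, 4420 and 3930 CPM with CPTH6 and 3080, 2600 and 2550 CPM with ML324, and the untreated PLD range of 2310 to 5110 CPM covered both.

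That range was set by replicate 2 of untreated PLD at 2 months, the highest of its group in every member except Fosl1. It also had 21900 CPM of the 29 dissociation and immediate early genes against 16700 and 14900 CPM, and 3510 CPM of stellate cell and fibroblast markers against 5940 and 7800 CPM. Without it 6 members passed for CPTH6, with Fos at 0.66 (edgeR adjusted p = 0.0148), Fosb at 0.78 (0.042) and Atf3 at 0.50 (0.0276) besides Fosl1, Maff and Batf, while 3284 genes passed in all, against 3818 with it. For ML324, Fosl1, Maff and Batf passed without it too, and Fos, Jun, Junb, Jund and Atf3, all below 0 with it, were at 0.12 to 0.17 without it. The part of dissociation in these values was not tested.

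CPTH6 and ML324 were compared directly in a fit of the 6 treated libraries. No gene of the 15989 tested passed with edgeR, so the share called is 0%, and 2008 had an unadjusted p under 0.05. With DESeq2, 293 genes passed, 2 members among them. Those were Fos, at 3640, 4420 and 3930 CPM with CPTH6 and 3080, 2600 and 2550 CPM with ML324, and Atf3, at 3210, 3520 and 3330 CPM with CPTH6 and 2720, 2380 and 2340 CPM with ML324. In both genes each CPTH6 library was above each ML324 library, as was Junb, at 2330, 2340 and 2400 CPM against 2270, 1750 and 1440 CPM, and 20.4% of genes did not overlap.

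The log2 fold change of Fos was 0.49 ± 0.13 (SE; 95% interval 0.18 to 0.80; edgeR adjusted p = 0.278, DESeq2 adjusted p = 0.016), and that of Atf3 was 0.38 ± 0.12 (SE; 95% interval 0.11 to 0.66; edgeR adjusted p = 0.287, DESeq2 adjusted p = 0.0363). For Fosl1 it was 0.10 (95% interval -0.19 to 0.39), for Maff 0.17 (-0.09 to 0.44) and for Batf -0.53 (-1.36 to 0.31), intervals that all include 0. The libraries of CPTH6 were also deeper, with 25646673 to 29161949 counts against 16345740 to 17922506, and held 2.22% to 2.36% mitochondrial counts against 1.40% to 1.74%. The part of depth and mitochondrial share in the difference of Fos and Atf3 was not tested.

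Within the JUN family the make-up differed between genotypes at both times. As a share of the family's CPM per kilobase, Jund made up 14.8% to 25.0% in WT at 1 month and 20.9% to 22.7% in WT at 2 months, against 30.4% to 33.3% and 34.9% to 37.9% in PLD. The groups did not overlap at either month. In CPM, 26.4% of all genes tested were apart at 1 month and 54.9% at 2 months, in either direction. Such a background was not computed for family shares. Jund's own CPM overlapped at 1 month, at 1030, 821 and 349 CPM in WT and 816, 802 and 816 CPM in PLD. The share of Junb went the other way, from 40.9% ± 6.8 (SD, n = 3) in WT to 29.4% ± 1.6 in PLD at 1 month and from 40.6% ± 2.3 to 29.9% ± 0.9 at 2 months. Jun stayed between 32.1% and 39.8% in all libraries. Over the whole exonic length instead of the free bases, Jund made up 11.7% ± 3.4 and 12% ± 0.53 in WT and 19.1% ± 1.2 and 21.7% ± 1.3 in PLD, lower shares with the same order. These shares were described and not tested, and neither was the part of cell makeup in them.

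In the FOS family, Fos and Fosb made up nearly all of the CPM per kilobase, with Fos at 49.6% to 66.0% and Fosb at 31.0% to 43.9% in the 18 libraries. The share of Fosl1 was 0.348% to 2.03% in the untreated libraries, 4.35% to 5.40% with CPTH6 and 4.62% to 7.05% with ML324. Fosl2 made up 1.28% to 3.34%.

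**Figure D5:**
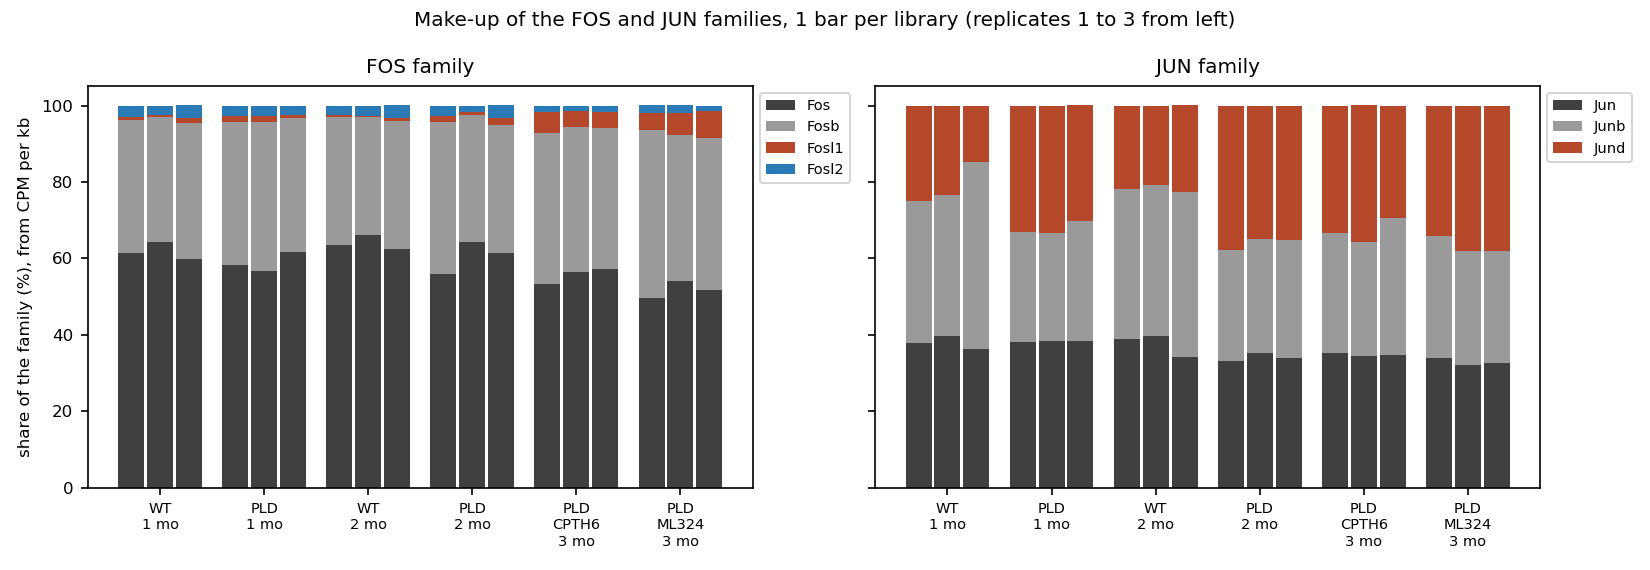
Make-up of the FOS family (left) and the JUN family (right) in each library, as percent of the family's CPM per kilobase of exon that overlaps no other gene, 1 bar per library. Fosl1 is a thin band that reaches 7.05% in the treated libraries, and the Jund band is wider in all PLD libraries (29.5% or more) than in all WT libraries (25.0% or less).

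The genes with the pattern most like each member were found by the smallest root mean square difference of centred log2 CPM over the 18 libraries, among genes outside the set of 10 with a mean of at least 10 CPM and a proper symbol. For Fosl1 they were Plaur, the urokinase receptor, at 0.28, and Gadd45a, a stress and DNA damage response gene, at 0.35. Plaur had 192 ± 61.3 CPM (SD, n = 3) in WT and 695 ± 87.4 CPM in PLD at 2 months, 2420 ± 219 CPM with CPTH6 and 2120 ± 193 CPM with ML324. Its log2 fold changes were 1.83 ± 0.26, 1.75 ± 0.15 and 1.61 ± 0.15 (SE; edgeR adjusted p = 0.00049, 0.000333 and 0.000489). For Batf they were Timp3, an inhibitor of metalloproteinases, at 0.32, and Cst3, a cysteine protease inhibitor, at 0.34. For Maff they were Map3k5, a stress kinase also called ASK1, at 0.17, and Usp53 at 0.18. These are descriptions of likeness over libraries that share depth, genotype and cell makeup. Plaur was picked for its likeness to Fosl1 over these same libraries, so its calls are not independent of that choice.

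With members left out of the search in this way, Fos was nearest to Atg16l2 and Pim3, at 0.24 and 0.25, and Jun to Tsc22d1 and Pim3, at 0.15 and 0.18. Fosb was nearest to Mrps6 and Rabgef1, at 0.18 and 0.24, Junb to Sun2 and Rock1, at 0.20 and 0.21, and Jund to Gpsm1 and Btg3, at 0.22 and 0.23. Atf3 was nearest to Rassf1 and Heca, at 0.17 and 0.19. Fosl2 was nearest to Nr4a1, an immediate early orphan receptor, and Pbxip1, both at 0.18.

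The other genes of the pathway at 2 months are read against the 40% of all genes that passed. Of 25 genes known as AP-1 targets, 6 were higher and 4 lower in PLD, with a median log2 fold change of -0.14. Areg, a ligand of the EGF receptor, went from 0.586 ± 0.224 CPM (SD, n = 3) in WT to 36.8 ± 14.1 CPM in PLD, a log2 fold change of 5.91 ± 0.57 (SE; edgeR adjusted p = 9.77e-05). Hbegf, another ligand of that receptor, went from 252 ± 96.1 to 1190 ± 207 CPM, 2.22 ± 0.28 (SE; edgeR adjusted p = 0.000266). Of 19 MAP kinase phosphatases and feedback inhibitors, 5 were higher and 4 lower, and the phosphatases Dusp4, Dusp10 and Dusp5 were higher by 2.31 ± 0.27, 2.19 ± 0.24 and 1.91 ± 0.26 on the log2 scale (SE; edgeR adjusted p = 0.000182, 0.000142 and 0.000352).

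Of 25 upstream kinases and SRF or TCF factors, 9 were higher and 7 lower at 2 months. Mapk13, a p38 kinase, was higher by 2.43 ± 0.32 and Rps6ka1, a kinase downstream of ERK, by 1.80 ± 0.19, whereas Elk3, a TCF factor, had a log2 fold change of -2.69 ± 0.38 (SE; edgeR adjusted p = 0.000352, 0.000119 and 0.000496). Of 13 tested bZIP partners 3 were higher and 2 lower. Mafk and Mafg, small MAF proteins like Maff, were higher by 0.95 ± 0.19 and 0.55 ± 0.13, and Maf, a large MAF protein, had a log2 fold change of -2.35 ± 0.32 (SE; edgeR adjusted p = 0.00327, 0.00773 and 0.000417). Of the 29 dissociation and immediate early genes 4 were higher and 5 lower, with a median of -0.25.

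In the treated comparisons these lists are read against the 23.1% of all genes called for CPTH6 and the 19.4% called for ML324. Of the 29 dissociation and immediate early genes 5 were higher and 4 lower with CPTH6, and 2 were higher and 6 lower with ML324. Of the 25 AP-1 targets 6 were higher and 8 lower with CPTH6, and 4 were higher and 10 lower with ML324, so Plaur rose while Mmp3, a stromal metalloproteinase, fell by 4.06 on the log2 scale with CPTH6 (SE 0.62; edgeR adjusted p = 0.00217) and Mmp14 fell by 0.85 with ML324 (SE 0.11; edgeR adjusted p = 0.00166). Of the 19 phosphatases and feedback inhibitors 6 and 5 were higher and 1 and 2 lower. Dusp6, a phosphatase of ERK, was higher by 0.80 ± 0.11 and 0.76 ± 0.11, and Spry1, a receptor kinase inhibitor, had log2 fold changes of -1.78 ± 0.22 and -1.96 ± 0.22 with CPTH6 and ML324 (SE; edgeR adjusted p = 0.00131, 0.00223, 0.000838 and 0.000982).

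Among the 24 upstream kinases and factors tested in the treated comparisons, 6 were higher and 4 lower with CPTH6, and 5 were higher and 4 lower with ML324. Map2k3, which activates p38 kinases, had 103 ± 13.8 CPM (SD, n = 3) in untreated PLD, 314 ± 38 CPM with CPTH6 and 247 ± 43.9 CPM with ML324, higher in both (edgeR adjusted p = 0.000416 and 0.00126). Mapk8, which encodes JNK1, was higher by 0.59 ± 0.08 and 0.70 ± 0.08 (SE; edgeR adjusted p = 0.00116 and 0.000999). Srf, the serum response factor, had log2 fold changes of -0.79 ± 0.15 and -0.84 ± 0.15 (SE; edgeR adjusted p = 0.0055 and 0.00526). Of the 13 bZIP partners 4 and 1 were higher and 3 were lower with either compound. Mafk was higher by 0.72 ± 0.13 and 0.68 ± 0.13 (SE; edgeR adjusted p = 0.00389 and 0.00599).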

How the data were processed

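RNA of 18 libraries of mouse cholangiocytes was sequenced on the Illumina NovaSeq platform, per the labels' protocols. Per the file headers, the authors counted read pairs per gene with featureCounts 1.6.0 on mm10 with GENCODE vM25, with no strand option and no multiple assignment, and the deposited values are raw counts. STAR 2.7.4a, SAMtools 1.12 and DESeq2 stand in the submitters' processing notes. Names came from GENCODE vM21, for 55141 of 55401 genes. The tests here were edgeR 4.0.16 quasi-likelihood tests in R 4.3.3 with TMM scaling and filterByExpr, in fits of 12 untreated, 6 treated and 9 PLD libraries with 8, 4 and 6 residual degrees of freedom. Calls needed a Benjamini-Hochberg adjusted p under 0.05 over all genes tested. Similarity used log2 CPM with a prior count of 2. The members, the gene lists (5 pathway and 9 marker lists, 212 symbols) and the naming rule (3 pathway genes per list and comparison, 2 similar genes per member) were chosen with earlier results of these data known. Dusp1 and Spp1 each stand in 2 lists. A gene that the naming rule picked is not reported here. Checked on simulated counts in which few genes were changed, edgeR recovered 33% of 2-fold and 72% of 4-fold changes for PLD versus WT at 2 months. No 2 libraries of a group were identical. Alternatives were DESeq2 1.42.0, RLE size factors, no count filter, a replicate block, fits of the 2 groups compared, and leaving out each library.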

Additional observations from a re-analysis of the deposited data

How the results depend on the processing

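Fosl1 kept its call at 2 months (17 alternatives) and in both treated comparisons (14 each), as did Batf and Maff for CPTH6. Simulated 2-fold changes were recovered at 33% for PLD versus WT at 2 months and 10% for the interaction. Far fewer genes were changed in the simulation than were called at 2 months, so these rates do not give the power of that test. A member without a call may still differ. Batf, with 17 to 143 counts per library, is the member most limited by depth. The replicate numbers did not pair the libraries: no 2 groups had a correlation of same-numbered libraries over 0.1 in every pair, with values from -0.23 to 0.25.

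With the replicate number as a block, 2 members passed at 2 months and 2 for ML324, Maff being lost in each (0.74, edgeR adjusted p = 0.0653, and 0.52, 0.0726), and Batf at 1 month was at 0.07, Fos at 2 months at -0.04 and Fosb between times in PLD at -0.02, none of them called. The block gave 965 called genes between times in PLD, 0 between times in WT, 426 for the interaction and 1 for CPTH6 versus ML324. Fits of only the 2 groups compared gave 29 genes at 1 month, 3811 between times in PLD and 0 between times in WT, against 892, 1706 and 9.

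Without a count filter, 1 member passed at 1 month, Junb at -0.80 (edgeR adjusted p = 0.0096), 4 passed for CPTH6 and 4 for ML324, with Fosb (0.51, edgeR adjusted p = 0.0193) and Fosl2 (-0.41, 0.0425) gained, and 2194 genes passed at 1 month, 2818 between times in PLD, where Fosb was at -0.01, 1224 between times in WT, 2282 for the interaction and 232 for CPTH6 versus ML324. DESeq2 called 1 member at 1 month, Junb (-0.83, adjusted p = 0.0024), and 2 for CPTH6 versus ML324, with 2477, 3493, 827, 2374 and 293 genes in the same order of comparisons. The cause of these differences was not tested.

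Leaving out 1 library at a time, the members called ranged from 0 to 2 at 1 month, 1 to 4 at 2 months, 0 to 1 for the interaction, 3 to 6 for CPTH6 and 1 to 3 for ML324. The genes called ranged from 99 to 3485 at 1 month, 5324 to 8622 at 2 months, 135 to 3762 between times in PLD, 0 to 389 between times in WT, 100 to 1413 for the interaction, 0 to 3 for CPTH6 versus ML324, 2490 to 3975 for CPTH6 and 1939 to 3081 for ML324. At 1 month, between times in either genotype, at 2 months and for the interaction the highest count came without replicate 3 of WT at 1 month.

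Some log2 fold changes changed sign when 1 library was left out. Of these only Fos for CPTH6 was called in any such fit, without replicate 2 of untreated PLD and with its sign unchanged. The log2 fold changes were all uncalled in the full fit and where the sign changed. They ranged at 1 month from -0.43 to 0.31 for Batf, -0.21 to 0.11 for Atf3 and -0.16 to 0.49 for Jund; at 2 months from -0.40 to 0.29 for Fos, -0.09 to 0.47 for Fosb, -0.07 to 0.36 for Jun and -0.35 to 0.02 for Junb. Between times in PLD the ranges were -0.28 to 0.41 for Fos, -0.27 to 0.28 for Fosb, -0.07 to 0.31 for Junb, -0.08 to 0.33 for Atf3, -0.08 to 0.22 for Maff, -0.10 to 0.19 for Fosl1 and -0.38 to 0.18 for Batf. Batf ranged from -0.32 to 0.40 between times in WT and from -0.57 to 0.13 for the interaction. For CPTH6 versus ML324 the ranges were -0.01 to 0.22 for Jund and -0.06 to 0.29 for Fosl2. Against untreated PLD they were -0.13 to 0.24 for Jund and -0.02 to 0.66 for Fos with CPTH6, and with ML324 -0.51 to 0.17 for Fos, -0.32 to 0.12 for Jun, -0.25 to 0.17 for Junb, -0.23 to 0.14 for Jund, -0.28 to 0.12 for Atf3 and -0.05 to 0.49 for Fosb.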
